A study of Mus musculus with 6 samples.

Results

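Chemokines and their receptors form a set of 31 genes among the 55385 genes of a liver RNA sequencing table, chosen by name as 21 ligands, 9 receptors and the chemokine-like factor Cklf, and all 31 were found by their mouse symbols. Liver RNA was measured in 6 male mice kept on a high-fat diet (HFD), 3 of them sham-operated and 3 operated by vertical sleeve gastrectomy (VSG), in which the stomach is cut down to a narrow tube. The labels give both groups as 6-8 weeks old with 10 weeks of HFD before the operation, followed by 12 weeks of HFD after it, so that the operation is the only labelled difference. Polyadenylated RNA from about 40 mg of liver of 1 animal made up each library, so the values average over all cell types of the liver. The study's methods name wild-type C57BL/6 mice, and the labels give no strain.

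Chemokines are small secreted proteins that guide leukocytes along concentration gradients. They act through receptors coupled to G proteins, while atypical receptors such as Ackr1 and Ackr3 bind ligands without that coupling and carry or remove them. In the liver, chemokines made by hepatocytes, Kupffer cells, stellate cells and endothelium place neutrophils, monocytes and lymphocytes in the sinusoids and portal tracts, and many of their genes are induced through nuclear factor kappaB (NF-kappaB) or through interferon.

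Of the 31 genes, 30 had enough counts to be tested and 7 of them differed between VSG and sham livers (23.3%), against 14.7% of all 14454 genes tested. Expression after VSG rose in 5 genes, the ligands Cxcl1, Cxcl13 and Cxcl14 and the receptors Cxcr6 and Ackr1, and fell in 2, the ligands Cxcl10 and Ccl22. By direction, 6.79% of all genes tested rose and 7.87% fell. The median log2 fold change was -0.03 over the 30 genes and 0.03 over all genes tested, with 14 chemokine and receptor genes above 0 and 16 below. The 3 VSG libraries lay above the 3 sham libraries in 5 of the 30 genes and below them in 3, where 19.8% of all genes tested did each. Ccl19, a ligand of Ccr7, had 0 counts in every library, and another gene of that name in the annotation had no line in the table, so reads shared by the pair are not accounted for. Adjusted p-values throughout come from edgeR's quasi-likelihood test with Benjamini-Hochberg adjustment over all genes tested unless another tool is named, and a gene is said to rise or fall where this value is under 0.05.

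Total counts were between 22804397 and 24191778 per library, and 3 counts, the level taken as the detection floor, equalled 0.111 to 0.143 CPM (counts scaled to library size and TMM factor). Summed hepatocyte markers, led by Alb, stood at 63074, 98959 and 64638 CPM in sham replicates 1, 2 and 3. In VSG replicates 4, 5 and 6 they stood at 49913, 75417 and 75122 CPM. The number of calls changed when 1 library was left out, in the 30 genes and over all genes, and such fits hold fewer animals. With VSG replicate 6 left out none of the 30 genes was called by edgeR, although 9 had an unadjusted p under 0.05, and 1.42% of all genes were called in that fit. Leaving out sham replicate 1 gave 1 called gene of the 30 (8.19% of all genes), sham replicate 3 gave 1 (1.07%), VSG replicate 4 gave 2 (7.32%), sham replicate 2 gave 4 (5.34%) and VSG replicate 5 gave 10 (18.4%). With all 6 libraries, 10 of the 30 genes and 33.9% of all genes had an unadjusted p under 0.05. DESeq2 called 8 of the 30 genes and 19.3% of all genes, and limma-voom 3 and 12.9%.

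**Figure D1:**
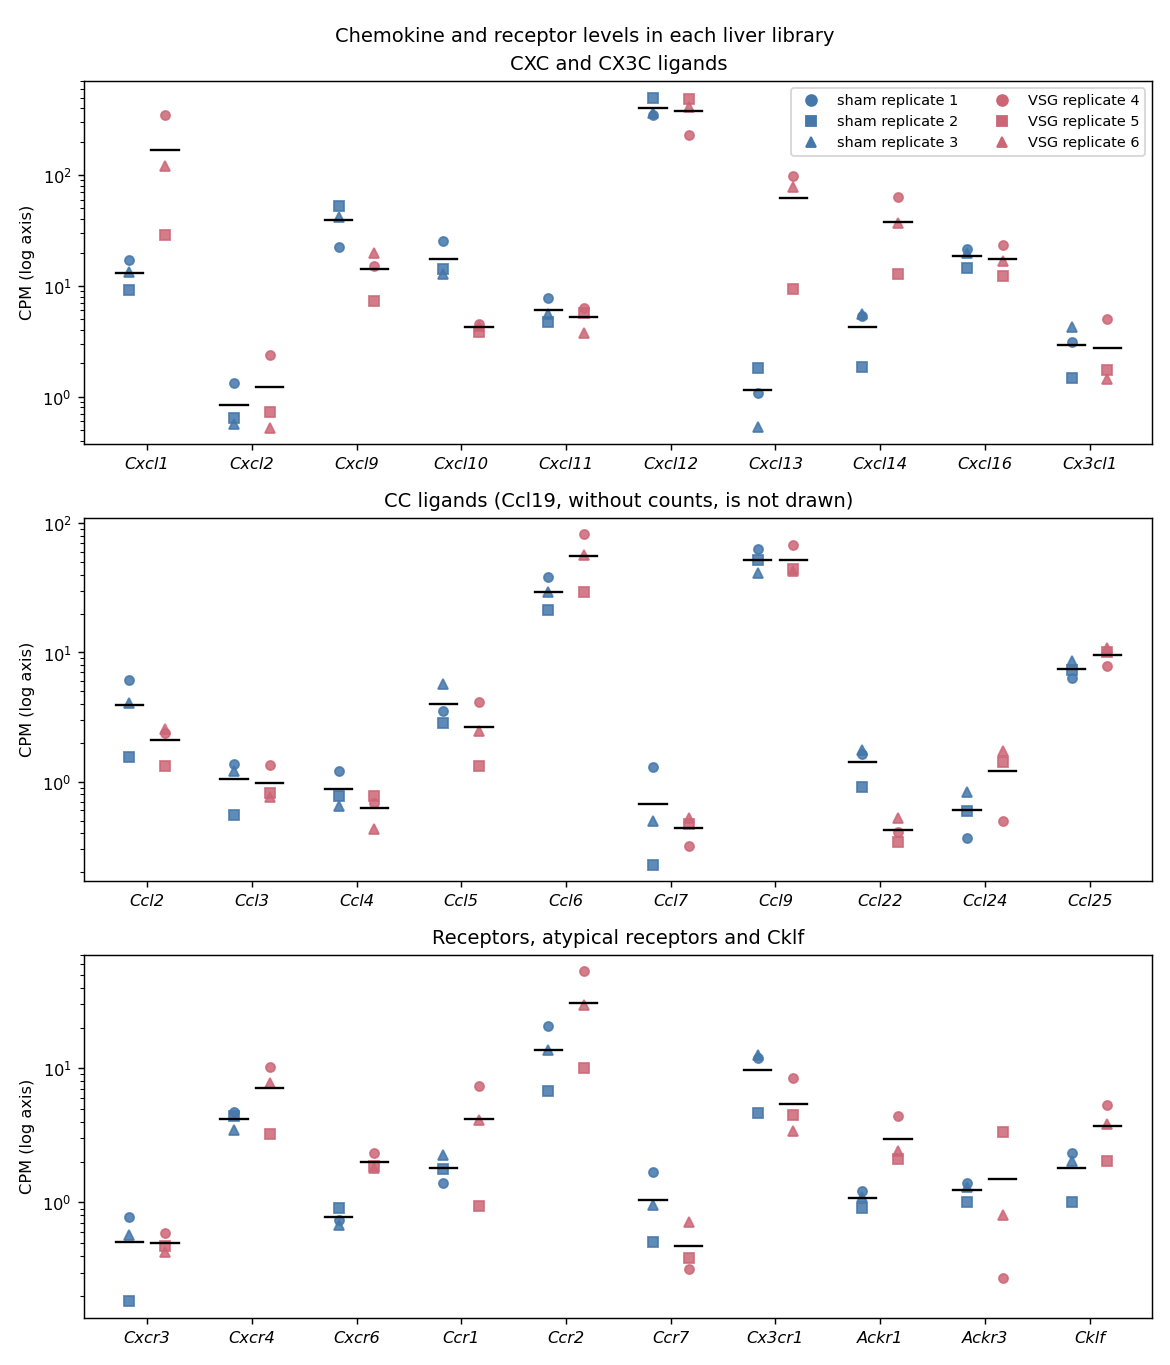
Expression of chemokine and receptor genes in each library, in CPM on a log axis, with 1 point for each of the 3 sham and the 3 VSG livers and a bar at each group's mean. Cxcl1, Cxcl13 and Cxcl14 had all 3 VSG points above the sham points, and Cxcl10, Cxcl9 and Ccl22 had all of them below.

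The promoters of 6 CXC ligands are shown first, because they include the largest difference in each direction and 5 of them lie on chromosome 5. Each line gives the 250 bases before the RefSeq transcription start in GRCm38.p6, 5′ to 3′ on the strand of the gene. Capitals mark matches, on either strand, to a kappaB site (the binding motif of NF-kappaB), to the core of the interferon-stimulated response element (ISRE, read as GAAA, any 2 bases and GAAA again) or to the gamma-activated sequence (GAS, TTCNNNGAA), and lower case letters hold no match.
Cxcl1, chr5:90890995-90891244, plus strand: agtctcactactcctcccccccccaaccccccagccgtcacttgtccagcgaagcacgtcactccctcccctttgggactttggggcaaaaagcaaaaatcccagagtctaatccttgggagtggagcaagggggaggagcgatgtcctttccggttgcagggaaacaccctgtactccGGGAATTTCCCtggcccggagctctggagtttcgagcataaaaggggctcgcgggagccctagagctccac
Cxcl2, chr5:90903649-90903898, plus strand: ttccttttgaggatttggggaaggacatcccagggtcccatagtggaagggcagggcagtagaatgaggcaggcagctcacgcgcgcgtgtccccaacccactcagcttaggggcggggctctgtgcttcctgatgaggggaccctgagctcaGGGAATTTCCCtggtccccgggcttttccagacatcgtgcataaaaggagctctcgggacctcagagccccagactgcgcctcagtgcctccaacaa
Cxcl9, chr5:92328080-92328329, minus strand: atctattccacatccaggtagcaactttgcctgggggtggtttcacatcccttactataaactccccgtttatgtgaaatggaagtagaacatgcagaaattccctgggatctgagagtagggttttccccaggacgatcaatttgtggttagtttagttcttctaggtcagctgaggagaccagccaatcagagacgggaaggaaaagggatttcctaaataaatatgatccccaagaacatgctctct
Cxcl10, chr5:92348890-92349139, minus strand: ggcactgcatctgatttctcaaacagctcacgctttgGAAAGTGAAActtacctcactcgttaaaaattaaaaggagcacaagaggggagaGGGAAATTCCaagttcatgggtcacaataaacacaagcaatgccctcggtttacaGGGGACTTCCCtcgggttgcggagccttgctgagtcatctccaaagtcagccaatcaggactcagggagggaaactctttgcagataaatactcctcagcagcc
Cxcl13, chr5:95956689-95956938, plus strand: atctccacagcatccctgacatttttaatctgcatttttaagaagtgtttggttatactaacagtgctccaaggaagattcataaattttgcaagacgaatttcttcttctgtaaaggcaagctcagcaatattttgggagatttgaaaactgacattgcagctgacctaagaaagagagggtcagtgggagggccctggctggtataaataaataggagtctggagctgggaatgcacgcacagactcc
Cxcl14, chr13:56296552-56296801, minus strand: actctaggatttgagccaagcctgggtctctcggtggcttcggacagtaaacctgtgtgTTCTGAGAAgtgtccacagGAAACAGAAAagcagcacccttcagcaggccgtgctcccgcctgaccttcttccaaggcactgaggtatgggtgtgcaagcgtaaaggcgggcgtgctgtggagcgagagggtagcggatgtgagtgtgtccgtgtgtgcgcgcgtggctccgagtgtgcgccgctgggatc

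The windows of Cxcl1 and Cxcl2 held the same capital run, made of overlapping kappaB matches on opposite strands, which began at positions -71 and -70 in Cxcl1 and -97 and -96 in Cxcl2, counted back from the start. Cxcl10 held an ISRE core at position -213 and kappaB matches at positions -159, -104 and -103, the last 2 of which overlap. Cxcl14 held an ISRE core at position -172 and a GAS match at position -191. Cxcl9 and Cxcl13 held none of the 3 motifs in this window. RefSeq promoters were matched for 23 of the 31 genes, of which 5 held a kappaB match (Cxcl1, Cxcl2, Cxcl10, Ccl9 and Ccr1), 3 an ISRE core (Cxcl10, Cxcl14 and Ccl19) and 1 a GAS match (Cxcl14). Among all 26994 genes with promoters of this length, 8.23% had a kappaB match, 3.45% an ISRE core and 8.12% a GAS match, and the shares over all 32817 promoters were 7.25%, 2.97% and 7.01%. A match says only that these letters are present.

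**Figure D2:**
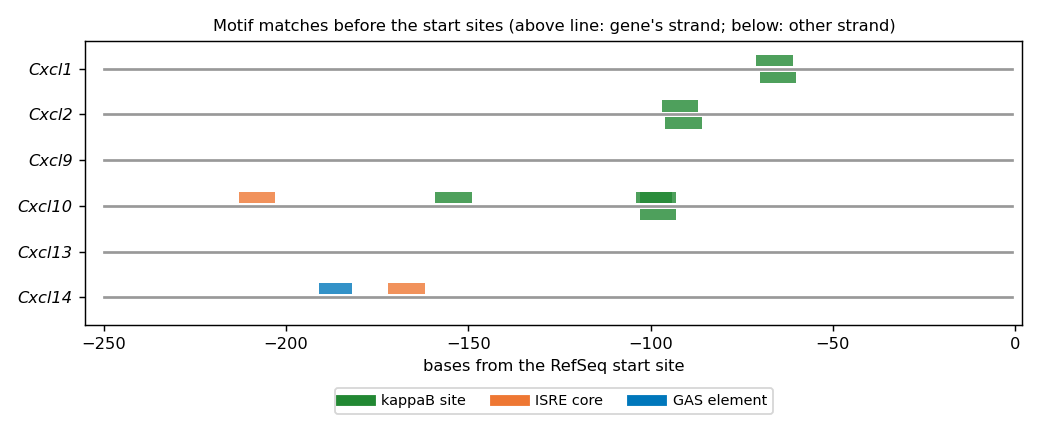
Motif matches in the 250 bases before the start of the 6 genes, with the distance from the RefSeq start in bases on the horizontal axis, 1 colour for each motif, and blocks above the line for the gene's strand and below it for the other strand. Cxcl10 has both an ISRE core and kappaB matches, Cxcl1 and Cxcl2 have kappaB matches alone, and Cxcl9 and Cxcl13 have no block.

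Cxcl1 and Cxcl2 are ligands of Cxcr2, the receptor that draws neutrophils out of the circulation, and their genes are neighbours on chromosome 5. Cxcl1 (ENSMUSG00000029380.11, chr5:90891241-90893115) rose 12.6-fold in mean CPM. The sham libraries had 17.0, 9.23 and 13.3 CPM, and the VSG libraries 350.2, 28.9 and 120.7 CPM. All VSG libraries lay above all sham libraries, but they spread 12.1-fold among themselves. The means were 13.2 ± 3.88 (SD, n = 3) in sham and 166.6 ± 165.5 (SD, n = 3) in VSG livers, and the log2 fold change was 3.66 with a standard error (SE) of 0.85 and an adjusted p of 0.0360. Without VSG replicate 4 the log2 fold change was 2.501. Among the fits that each left out 1 library, only that without VSG replicate 5 called Cxcl1, and the adjusted p over the 6 fits ran from 0.00741 to 0.141, with limma-voom at 0.0607.

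Cxcl2 (ENSMUSG00000058427.10, chr5:90903871-90905938) was low in all libraries. It had 1.33, 0.640 and 0.570 CPM in sham and 2.40, 0.727 and 0.525 CPM in VSG livers. The groups overlapped, with 1 higher library in each. Its log2 fold change of 0.51 had a 95% confidence interval from -1.02 to 2.05 and an adjusted p of 0.599, and whether the changes of Cxcl1 and Cxcl2 differ was not tested. Read counts of Cxcr2, their receptor, were 15, 2 and 21 in the sham and 305, 62 and 160 in the VSG libraries, and it rose by a log2 fold change of 4.01 (SE 0.79, adjusted p 0.0246), but was called in only 2 of the 6 fits that left out 1 library, those without VSG replicate 4 (3.37) or VSG replicate 5, with adjusted p up to 0.0911. Ppbp, a platelet ligand of Cxcr2, rose as well (log2 fold change 3.10, adjusted p 0.0289), a call kept among these fits only without VSG replicate 5 (up to 0.125, and a log2 fold change of 2.37 without VSG replicate 6) and lost in limma-voom, whereas Cxcl5, at 3 to 28 counts in sham and 7 to 59 in VSG livers, had a log2 fold change of 1.39 and an adjusted p of 0.328.

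Neutrophil marker genes were counted as well. All 14 listed markers rose in edgeR and DESeq2, 4 of them in limma-voom, where 6.79%, 8.99% and 5.59% of all genes rose, and Cxcr2 is itself 1 of the 14. With sham replicate 1, 2 or 3 taken out 10, 3 and 1 were called, and with VSG replicate 4, 5 or 6 taken out 13, 14 and 1, while all 14 had an unadjusted p under 0.05 in each of these fits. Their summed level was 8.63 to 24.5 CPM in sham libraries and 1969, 174.7 and 912.9 CPM in VSG replicates 4, 5 and 6, the same order of libraries as for Cxcl1. Cxcl2 did not share this order, and VSG replicate 4 was the highest VSG library in 39.1% of all genes tested. Ly6g, which defines mouse neutrophils, had 1, 0 and 1 counts in sham and 90, 10 and 47 in VSG livers, and Mpo had 0 counts in 1 sham library. In bulk liver, fewer cells of a type and less RNA per cell cannot be told apart, nor more cells and more RNA per cell, and the part of these cells in the difference in Cxcl1 was not tested.

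Cxcl9 and Cxcl10 are induced by interferons and act on the receptor Cxcr3 of activated T and NK cells. The annotation lists Cxcl11, whose product in other strains binds Cxcr3 too, as a polymorphic pseudogene, the only one of the 31 genes not listed as protein coding, so its counts are those of a transcript that may not encode a working ligand. The 3 genes stand in a row within 44.1 kb of chromosome 5. Cxcl10 (ENSMUSG00000034855.13, chr5:92346638-92348889, minus strand) had 25.4, 14.1 and 12.8 CPM in sham and 4.53, 3.85 and 4.34 CPM in VSG livers. The 3 VSG values lay close together, within 1.18-fold, and all below the lowest sham value. Mean CPM was 17.4 ± 6.92 (SD, n = 3) in sham and 4.24 ± 0.350 (SD, n = 3) in VSG livers, 4.11-fold lower, with a log2 fold change of -2.04 (SE 0.29, adjusted p 0.0114). Of the 12 alternative analyses 11 called it, and the call was lost without VSG replicate 6 (adjusted p 0.0596). Exons of Art3 overlap Cxcl10 on the opposite strand over 133 bases, and Art3 had 196 counts over the 6 libraries against 1613 for Cxcl10.

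Cxcl9 (ENSMUSG00000029417.9) had 22.6, 53.0 and 42.2 CPM in sham and 15.1, 7.31 and 19.8 CPM in VSG livers. These groups did not overlap either, and the VSG mean of 14.1 ± 6.29 CPM (SD, n = 3) stood against 39.3 ± 15.5 CPM (SD, n = 3). Its log2 fold change of -1.48 (95% interval -2.50 to -0.46) missed the threshold at an adjusted p of 0.0626, while DESeq2 placed it past the threshold at 0.00461. Cxcl11 (ENSMUSG00000060183.6) did not share this pattern. Its values of 7.75, 4.75 and 5.62 CPM in sham and 6.29, 5.73 and 3.77 CPM in VSG livers overlapped, with a log2 fold change of -0.20 (95% interval -0.83 to 0.43, adjusted p 0.619). Cxcr3, the receptor of Cxcl9 and Cxcl10, was low at 0.183 to 0.776 CPM in sham and 0.429 to 0.588 CPM in VSG livers, and its log2 fold change of -0.06 had an interval from -1.27 to 1.14.

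Genes of the interferon gamma response outside the set were counted beside these ligands. Of 25 listed genes 23 were tested, and 9 of them (39.1%) fell while none rose, against 7.87% and 6.79% of all genes tested. One gene of the 23 was higher at an unadjusted p under 0.05, and DESeq2 called 1 higher. The calls numbered 5, 6 and 1 lower with sham replicate 1, 2 or 3 taken out and 6, 8 and 2 lower with VSG replicate 4, 5 or 6 taken out, and 2 were higher without VSG replicate 5. The median log2 fold change was -0.25, with 10 genes above 0 and 13 below, and the largest positive value was 2.45. Their summed level was 1374 to 1443 CPM in sham and 1180, 1156 and 1493 CPM in VSG replicates 4, 5 and 6, so the groups overlapped. Gbp6, a guanylate-binding protein, had the largest negative value at -1.95 (adjusted p 0.0247), followed by the immunity-related GTPase Igtp at -1.56 (adjusted p 0.0165). Ifng itself had 0 to 2 counts in every library, and Irf1 had a log2 fold change of 0.38 (adjusted p 0.330). Of 11 T and NK cell markers tested, edgeR, DESeq2 and limma-voom called none, and 1 had an unadjusted p under 0.05 in edgeR, which called 1 higher without VSG replicate 5. Their sum was 10.2 to 11.1 CPM in sham and 9.15 to 17.3 CPM in VSG livers. Of 7 dendritic cell markers 1 fell, Siglech (log2 fold change -1.77, adjusted p 0.0397, and 0.0555 to 0.140 with 1 library left out), against 7.87% of all genes. At an unadjusted p under 0.05 in edgeR 3 of the 7 were lower and 0 higher, and DESeq2 called 2 lower (10.3% of all genes). Without sham replicate 2 edgeR called 1 dendritic marker lower, and without VSG replicate 5 it called 1 lower and 1 higher. The sum was 27.0 to 42.8 CPM in sham and 22.6 to 28.6 CPM in VSG livers. The part of either cell type in the lower Cxcl10 was not tested.

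**Figure D3:**
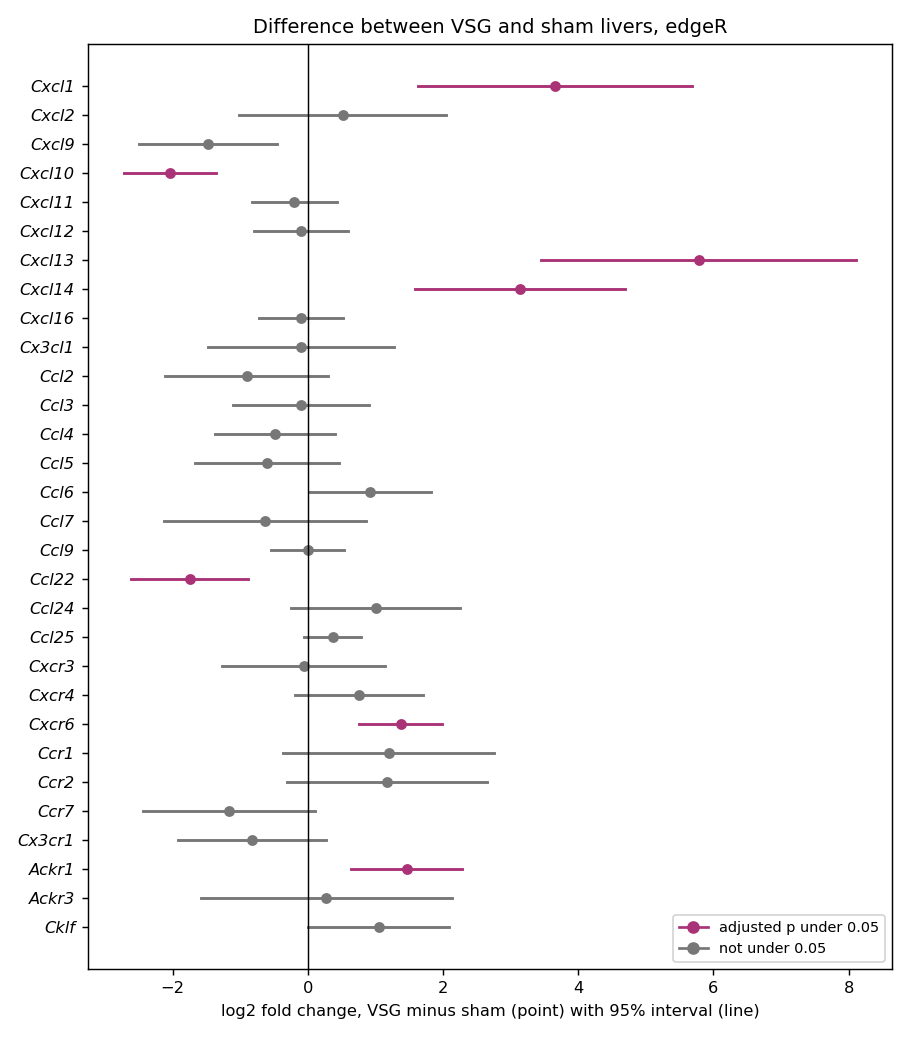
Log2 fold change, VSG minus sham, of the 30 chemokine and receptor genes tested, with 95% confidence intervals as lines and purple symbols for the 7 genes with an adjusted p under 0.05. The values run from -2.04 for Cxcl10 to 5.78 for Cxcl13, and most intervals of the other genes cross 0.

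Cxcl13 and Cxcl14 had the other large increases among ligands. Cxcl13 (ENSMUSG00000023078.6, chr5:95956951-95961068), which places B cells in lymphoid follicles through Cxcr5, had 1.07, 1.83 and 0.532 CPM in sham and 98.0, 9.32 and 78.8 CPM in VSG livers. Every VSG value was above every sham value, with VSG replicate 5 far below the other two. The means of 1.14 ± 0.651 (SD, n = 3) and 62.0 ± 46.6 CPM (SD, n = 3) were 54.2-fold apart, with a log2 fold change of 5.78 (SE 0.98, adjusted p 0.0171), the largest of the 30 genes. It was not called when sham replicate 1 or 3 was taken out (adjusted p 0.0522 and 0.0899), when VSG replicate 6 was (0.0682), or by limma-voom (0.104).

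Cxcr5, the receptor of Cxcl13, had 6 to 14 counts in sham and 9 to 16 in VSG livers, and its log2 fold change of 0.57 had an standard error of 0.43 and an adjusted p of 0.381. None of 6 B cell markers tested was called by edgeR, DESeq2 or limma-voom, none had an unadjusted p under 0.05 in edgeR, and their sum was 3.88 to 7.68 CPM in sham and 5.73 to 8.33 CPM in VSG livers. Kupffer cell markers rose in 5 of 8 cases, against 6.79% of all genes tested, with a sum of 283.5 to 592.2 CPM in sham and of 1889, 620.8 and 1179 CPM in VSG replicates 4, 5 and 6, and their part in the higher Cxcl13 was not tested. None of the 8 was called by edgeR with sham replicate 2 or 3 or VSG replicate 6 taken out, with 5 at an unadjusted p under 0.05 in each case, and 2 were called without VSG replicate 4.

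Cxcl14 (ENSMUSG00000021508.11, chr13:56288643-56296551), a ligand made by epithelia and stroma whose receptor is not settled, had 5.36, 1.87 and 5.55 CPM in sham and 63.8, 12.8 and 36.8 CPM in VSG livers. The VSG libraries were again ordered 4, 6 and 5 from high to low, and all exceeded the sham libraries. The rise was 8.87-fold, from 4.26 ± 2.07 to 37.8 ± 25.5 CPM (SD, n = 3 each), with a log2 fold change of 3.14 (SE 0.65, adjusted p 0.0281). Only the fit without VSG replicate 5 of the 6 that left out 1 library called it, with adjusted p up to 0.108, and limma-voom gave 0.0662. The log2 fold change was 2.53 without VSG replicate 4.

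Cxcl12, the ligand of Cxcr4 and Ackr3 that keeps leukocytes and progenitors in place, was the most abundant ligand per base of transcript in sham livers. It had 346.7, 500.3 and 359.7 CPM in sham and 231.7, 484.7 and 408.7 CPM in VSG livers, and the groups overlapped. The log2 fold change was -0.10 (95% interval -0.80 to 0.60, adjusted p 0.829). Cxcr4 had 4.73, 4.39 and 3.46 CPM in sham and 10.2, 3.25 and 7.78 CPM in VSG livers, with a log2 fold change of 0.76 (95% interval -0.19 to 1.71, adjusted p 0.228), and was called only where VSG replicate 5 was left out (adjusted p 0.0238). Ackr3, which takes up Cxcl12, ranged from 1.01 to 1.40 CPM in sham but from 0.271 to 3.38 CPM in VSG livers, a 12.4-fold spread with VSG replicate 5 highest.

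Expressed as FPKM (counts scaled to exon length and library size), which allows levels of different genes to be compared, Cxcl12 led the sham livers with 49.2 ± 10.4 FPKM (SD, n = 3), followed by Ccl9 with 17.1 ± 3.53, Ccl6 with 16.5 ± 4.66 and Cxcl9 with 13.02 ± 5.12. Ccl9, Ccl6 and Cxcl9 did not differ from each other beyond these SDs. After VSG the highest means were Cxcl1 with 88.9 ± 88.3 FPKM, Cxcl13 with 53.9 ± 40.6 and Cxcl12 with 45.9 ± 15.9, whose spreads overlap. The share of Cxcl12 in the summed FPKM of the 21 ligands was 29.7%, 44.7% and 34.2% in sham libraries and 6.54%, 42.5% and 18.2% in VSG replicates 4, 5 and 6. Cxcl1 held 3.60% to 6.35% of that sum in sham and 43.1%, 11.1% and 23.4% in VSG livers. Of the VSG libraries, replicate 5 had the shares nearest to those in sham. The table's exon length of Cxcl1, Cxcl2 and Cxcl10 equals the full span of the gene, introns included, so their FPKM would be higher on the spliced length.

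Cxcl16, a membrane-bound ligand shed from macrophages and endothelium, had 14.5 to 21.7 CPM in sham and 12.3 to 23.4 CPM after VSG, with a log2 fold change of -0.10 (95% interval -0.72 to 0.51). Its exons overlap those of Zmynd15 on the opposite strand over 552 bases. Its receptor Cxcr6 (ENSMUSG00000048521.8, chr9:123806475-123811760), carried by liver-resident lymphocytes, had 0.739, 0.914 and 0.684 CPM in sham and 2.35, 1.88 and 1.81 CPM in VSG livers. These were 18 to 20 counts in each sham library and 38 to 52 in each VSG library, narrow ranges with a gap between them. Cxcr6 rose 2.59-fold, from 0.779 ± 0.120 to 2.02 ± 0.294 CPM (SD, n = 3 each), with a log2 fold change of 1.37 (SE 0.26, adjusted p 0.0216). DESeq2 and limma-voom both called it, whereas the adjusted p was 0.0624 or 0.108 when sham replicate 1 or 3 was taken out and 0.0573 or 0.0706 when VSG replicate 4 or 6 was.

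Among the 10 CC ligands tested, 1 fell and none rose, near the 7.87% and 6.79% of all genes, and the median log2 fold change was -0.30. One CC ligand, Ccl6, was higher at an unadjusted p under 0.05, and neither DESeq2 nor limma-voom called any higher. Ccl22 (ENSMUSG00000031779.3, chr8:94745590-94751699), which draws regulatory T cells through Ccr4 and is made by dendritic cells and macrophages, was counted 44, 20 and 46 times in the sham and 9, 8 and 11 times in the VSG libraries. All VSG counts lay below the lowest sham count. In CPM it fell from 1.43 ± 0.450 to 0.425 ± 0.0926 (SD, n = 3 each), 3.36-fold lower, with a log2 fold change of -1.75 (SE 0.36, adjusted p 0.0278). The call was lost when any of 4 libraries was taken out, with an adjusted p of 0.0709 for sham replicate 1, 0.118 for sham replicate 3, 0.0713 for VSG replicate 4 and 0.0826 for VSG replicate 6. Ccr4 had 0 to 2 counts in every library.

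Ccl2 and Ccl7, which recruit monocytes through Ccr2, were low and did not pass the test. Ccl2 had 6.13, 1.55 and 4.07 CPM in sham and 2.40, 1.33 and 2.58 CPM after VSG, with a log2 fold change of -0.91 (95% interval -2.11 to 0.30), and Ccl7 had group means of 0.672 and 0.437 CPM. Ccl3, Ccl4 and Ccl5, which attract macrophages and T cells, had log2 fold changes of -0.10, -0.49 and -0.60, each with an interval that included 0.

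Ccl6 and Ccl9, rodent ligands of Ccr1 made by myeloid cells, were the most abundant CC ligands. Ccl6 had 38.1, 21.4 and 29.3 CPM in sham and 82.0, 29.6 and 56.8 CPM in VSG livers. One VSG value fell within the sham range, and the log2 fold change of 0.92 had an interval from 0.02 to 1.82 and an adjusted p of 0.141. Ccl6 passed without VSG replicate 5 (adjusted p 0.0313). Ccl9, its neighbour on chromosome 11, had 62.6, 52.4 and 41.1 CPM in sham and 68.1, 44.6 and 42.8 CPM in VSG livers, and its interval was narrow around 0, from -0.55 to 0.53. Ccl24, an eosinophil attractant that acts through Ccr3, had a log2 fold change whose 95% interval ran from -0.24 to 2.25 (adjusted p 0.223). Ccl25, a ligand of Ccr9, had a log2 fold change of 0.36 (95% interval -0.06 to 0.79), and Elavl1, whose exons overlap it on the opposite strand over 204 bases, had 6583 counts against its 1194.

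**Figure D4:**
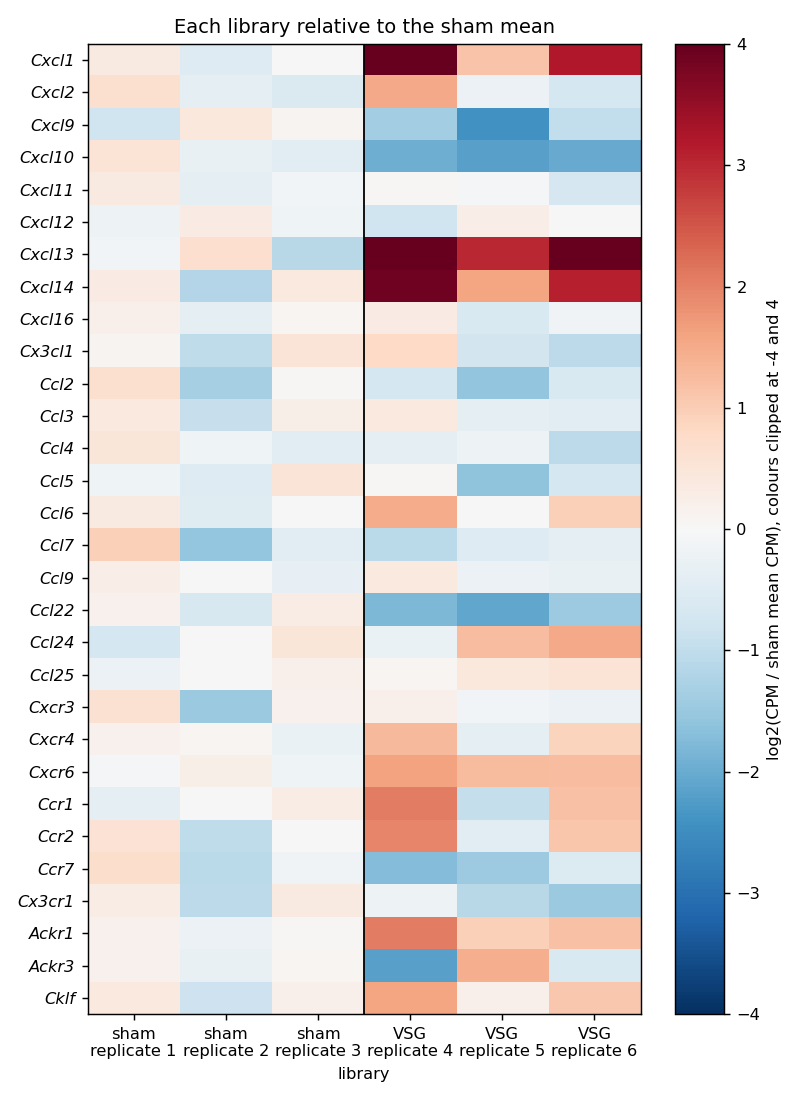
Level of each of the 30 genes tested in each of the 6 libraries as the log2 ratio of its CPM to the mean CPM of the sham libraries, with blue for lower and red for higher values and colours clipped at -4 and 4. Cxcl1, Cxcl14, Ccr1 and Ccr2 are highest in VSG replicate 4 and lowest among VSG livers in replicate 5, while Cxcl10 and Ccl22 are low in all 3 VSG libraries.

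Of the 9 receptors, all tested, 2 rose and none fell, where 6.79% of all genes tested rose and 7.87% fell, and the median log2 fold change was 0.76. No receptor was lower at an unadjusted p under 0.05, and DESeq2 and limma-voom called none lower. Cxcr6, Ccr1 and Ccr2 lie close together on chromosome 9, and of the 3 Cxcr6 alone was called. Ccr2, the monocyte receptor of Ccl2 and Ccl7, had 20.6, 6.76 and 13.8 CPM in sham and 53.0, 10.1 and 29.5 CPM in VSG livers. Both groups spread widely and overlapped, and its log2 fold change was 1.17 (95% interval -0.31 to 2.65, adjusted p 0.231), or 0.53 without VSG replicate 4. Ccr1, on neutrophils and macrophages, had 1.40, 1.78 and 2.24 CPM in sham and 7.42, 0.940 and 4.10 CPM in VSG livers, with a log2 fold change of 1.20 (adjusted p 0.242). Without VSG replicate 4 it was 0.47 (adjusted p 0.634), and without VSG replicate 5 it was 1.65 (adjusted p 0.0255). Of 10 monocyte and recruited macrophage markers 2 rose, against 6.79% of all genes tested. None was called by edgeR with sham replicate 2 or 3 or VSG replicate 6 taken out. In each of these fits 5 were higher at an unadjusted p under 0.05, and 1 was lower without sham replicate 2. DESeq2 called 5 higher, as did edgeR without VSG replicate 5. These markers summed to 183.2 to 564.6 CPM in sham and to 1187, 431.9 and 683.6 CPM in VSG replicates 4, 5 and 6, the order seen for Ccr2. Their part in the Ccr2 and Ccr1 values was not tested.

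Cx3cl1, the membrane-bound ligand fractalkine, and its receptor Cx3cr1 did not pass the test. Cx3cr1 had 11.9, 4.66 and 12.5 CPM in sham and 8.46, 4.49 and 3.43 CPM after VSG, with a log2 fold change of -0.83 (95% interval -1.93 to 0.27), and Cx3cl1 had group means of 2.94 and 2.75 CPM. Ccr7, which leads dendritic cells and naive T cells to lymph nodes, had 1.70, 0.503 and 0.950 CPM in sham and 0.317, 0.385 and 0.716 CPM in VSG livers, with a log2 fold change of -1.16 (95% interval -2.44 to 0.11, adjusted p 0.178). The groups overlapped in both receptors.

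Ackr1 (ENSMUSG00000037872.5, chr1:173331886-173333750), an atypical receptor of venular endothelium and red cells that binds many inflammatory ligands, had 1.22, 0.914 and 1.10 CPM in sham and 4.43, 2.10 and 2.43 CPM in VSG livers. The groups were separate, and the rise of 2.77-fold, from 1.08 ± 0.154 to 2.99 ± 1.26 CPM (SD, n = 3 each), gave a log2 fold change of 1.46 (SE 0.35, adjusted p 0.0372). It was called in 5 of 12 alternatives, and of the fits without 1 library only that without VSG replicate 5 called it (adjusted p up to 0.136). Its exons share 361 bases on the same strand with Cadm3, which had 1096 counts to the 280 of Ackr1. Cadm3 fell by 0.97 on the log2 scale (adjusted p 0.0414), opposite to Ackr1, and the split of shared reads between the pair is uncertain. None of 7 sinusoidal endothelial markers was called by edgeR, DESeq2 or limma-voom, none had an unadjusted p under 0.05, and their sum was 318.2 to 385.5 CPM in sham and 321.1 to 399.0 CPM in VSG livers. Cklf had 1.01 to 2.33 CPM in sham and 2.05 to 5.34 CPM in VSG livers, and its log2 fold change of 1.05 had an adjusted p of 0.147.

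The 30 genes varied more within each group than most genes did. The highest library of a group exceeded the lowest by a median of 2-fold in sham and 2.36-fold in VSG livers, compared with 1.28-fold and 1.34-fold over all genes tested. The 2 sets were not matched on count level. VSG replicate 4 was the highest VSG library in 20 of the 30 genes (66.7%, against 39.1% of all genes) and VSG replicate 5 the lowest in 15 (50%, against 36.1%). Sham replicate 1 was the highest sham library in 18 genes (60%, against 34.9% of all genes) and sham replicate 2 the lowest in 18 (60%, against 36.5%).

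**Figure D5:**
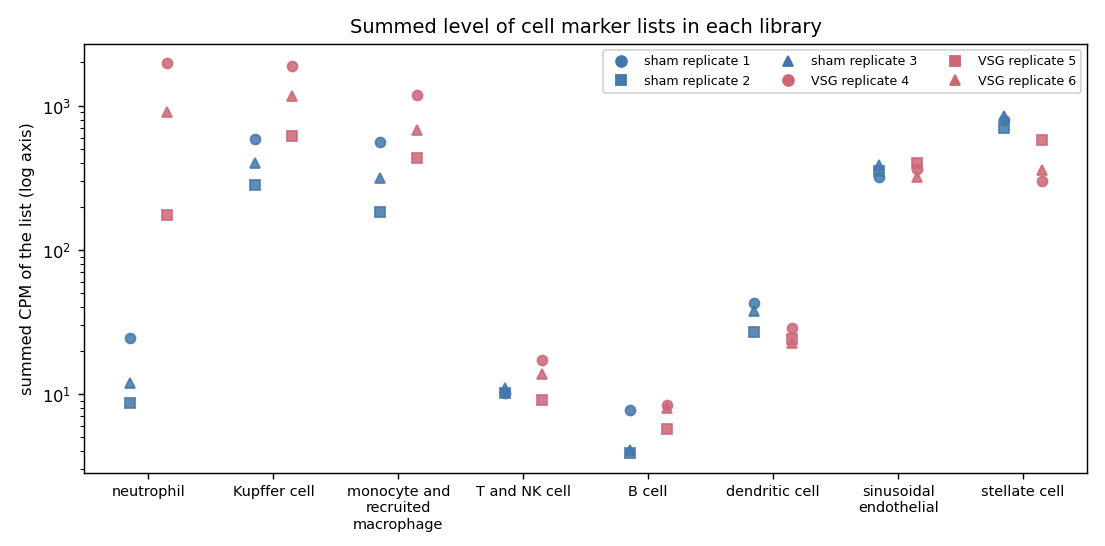
Summed CPM of 8 cell type marker lists in each library on a log axis, with colour for the group and symbol shape for the replicate. The neutrophil sum lies between 8.63 and 24.5 CPM in sham and between 174.7 and 1969 CPM in VSG livers. The sums of monocyte and recruited macrophage, T and NK cell, B cell, dendritic cell and sinusoidal endothelial markers overlap between the groups.

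A list of NF-kappaB and cytokine genes was counted, which holds inducers of chemokine genes but also inhibitors of NF-kappaB and adhesion molecules. Of 20 tested, 5 rose (25%, against 6.79% of all genes) and none fell, with a median log2 fold change of 0.74. None was lower at an unadjusted p under 0.05, and DESeq2 and limma-voom called none lower. No gene of the list was called by edgeR with sham replicate 2 or 3 or VSG replicate 6 taken out, with 5, 6 and 6 at an unadjusted p under 0.05, whereas 3 were called without VSG replicate 4 and 10 without VSG replicate 5. Il1r1, the receptor of interleukin 1, had 56.2, 90.5 and 80.0 CPM in sham and 801.1, 205.0 and 439.3 CPM in VSG livers, with no overlap, and rose by a log2 fold change of 2.67 (adjusted p 0.0212). Il1b, its ligand, rose by 1.90 (adjusted p 0.0314). Bcl3 and Nfkbiz, nuclear cofactors of NF-kappaB, rose by 1.54 (adjusted p 0.0291) and 1.32 (adjusted p 0.0236). The genes of NF-kappaB subunits themselves were not called, with log2 fold changes from 0.02 for Rela to 0.78 for Relb, and Il6 had 0 to 5 counts in every library.

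Enzymes that trim chemokines or sulfate their receptors formed a further list of 11 genes, all tested, of which 5 rose (45.5%, against 6.79% of all genes) and none fell, with none lower at an unadjusted p under 0.05 in edgeR and none called lower by DESeq2 or limma-voom, which called 5 and 1 higher, the latter being the sulfotransferase Tpst2 (adjusted p 0.0284). Leaving out sham replicate 1, 2 or 3 gave 2, 1 and 0 genes higher and leaving out VSG replicate 4 or 6 gave 4 and 0, with 5 at an unadjusted p under 0.05 in each of these edgeR fits. Without VSG replicate 5 there were 5 higher and 1 lower. The largest were the neutrophil granule enzymes Ctsg (log2 fold change 7.30, adjusted p 0.0219), Elane (7.11, adjusted p 0.0184) and Mmp8 (5.71, adjusted p 0.0170) and the gelatinase Mmp9 (4.81, adjusted p 0.0148), and 3 of these 4 (Elane, Mmp8 and Mmp9) are also in the neutrophil marker list. In limma-voom none of these 4 was called, with adjusted p of 0.129 for Ctsg, 0.171 for Elane, 0.107 for Mmp8 and 0.0632 for Mmp9. Without VSG replicate 4 their log2 fold changes were 6.51 for Ctsg, 6.29 for Elane, 4.74 for Mmp8 and 3.94 for Mmp9, and without sham replicate 1 they were 8.73 for Ctsg and 7.74 for Elane, neither of which was then called (adjusted p 0.0554 and 0.0509). Dpp4, which removes the first residues of Cxcl10 and Cxcl12, had 162.2, 202.2 and 158.0 CPM in sham and 72.4, 143.3 and 128.6 CPM in VSG livers, with a log2 fold change of -0.60 (adjusted p 0.155). Over all the listed pathway genes outside the set, 22 of 103 tested were called (21.4%, against 14.7% of all genes tested), 12 higher and 10 lower.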

How the data were processed

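Strand-specific libraries of polyadenylated RNA were made from livers of 3 sham and 3 VSG mice, and groups were taken from the labels. The deposited values were raw counts per gene, which the authors made with STAR 2.6.0 on mm10 and featureCounts 2.0.3, with FastQC 0.10.1 as a quality check, per the submitters' processing notes. The annotation used for counting, its strand setting and the handling of multiply mapped reads are not given in the sources used here. Gene symbols came from GENCODE M21 (GRCm38). The test was edgeR 4.0.16 under R 4.3.3 (filterByExpr with minimum count 10 and minimum total 15, TMM factors 0.897 to 1.15, quasi-likelihood fit with group as the only term), with p-values adjusted by the Benjamini-Hochberg method over 14454 genes. CPM used TMM factors, and FPKM also the deposited exon length. Errors are SD over 3 libraries, and the SE is the size of the log2 fold change over the square root of F.

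Libraries of a group differed by more than counting noise (chi-square per degree of freedom at least 27.5). They came from separate animals per the study's methods. The floor of 3 counts covers counting error only. An exact two-sided permutation test of 3 against 3 cannot go below 0.1, so none was used. Alternatives tried were limma-voom (limma 3.58.1), DESeq2 1.42.0, RLE size factors, total counts, and each library left out in turn. Filters of at least 1 count summed over all libraries, or of at least 10 counts in every library, were tried as well. The genes and all lists were chosen with earlier results of these data known. All 31 genes are accounted for, and of other lists at most 4 called genes, by size of change, and receptor or ligand partners were named. Art3, Cadm3, Cxcl5, Dpp4, Elavl1, Il6, Ifng, Irf1, Rela, Relb, Ly6g, Mpo, Alb, Tpst2 and Zmynd15 were named outside this rule, after their values were seen. Promoters came from RefSeq (GRCm38.p6). The fitting step was tested on simulated data. The hepatocyte marker Tf was not analysed here.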

Additional observations from a re-analysis of the deposited data

How the results depend on the processing

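No paired analysis was possible because the sham and VSG samples share no replicate number. Of all genes tested, 2118 were called, against 3270 with DESeq2 and 159 to 2732 with 1 library left out. Scaling to total counts moved the median log2 fold change of all genes from 0.03 to -0.11 and the share of calls that were higher from 46.3% (981 higher, 1137 lower) to 24.3% (486 and 1512), while the chemokine and receptor calls went from 5 higher and 2 lower to 4 and 3. Called chemokine and receptor genes numbered 7, against 3 with limma-voom and 0 to 10 with 1 library left out. For ligands these counts were 5, 2 and 0 to 6, and for receptors 2, 1 and 0 to 4, with 1 under total counts. Other pathway genes called numbered 22, against 34 with DESeq2 and 1 to 47 with 1 library left out. The median log2 fold change of the 30 genes was -0.03, was 0.44 with at least 10 counts required in every library, which left 24 genes, and ran from -0.23 to 0.25 with 1 library left out. Cxcr3 turned to 0.12 and Ackr3 to -0.39 in limma-voom, and Ccl9 to 0.0008 with at least 10 counts, and the cause was not tested. With 1 library left out, the sign was not stable for Cxcl2 (-0.44 to 1.0), Cxcl11 (-0.35 to 0.014), Cxcl12 (-0.35 to 0.15), Cxcl16 (-0.36 to 0.078), Cx3cl1 (-0.89 to 0.24), Ccl3 (-0.41 to 0.13), Ccl7 (-1.03 to 0.24), Ccl9 (-0.25 to 0.14), Cxcr3 (-0.44 to 0.36) or Ackr3 (-1.21 to 0.77), in log2 fold change. None of these genes was called with all libraries. Genes under about 1 CPM rest on few counts, and 3 animals per group limit every call.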

Other observations

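Downstream of the receptors, Rgs16, which ends signalling by activating the GTPase of G protein alpha subunits, had 96.8, 426.4 and 202.9 CPM in sham and 3.08, 13.2 and 3.63 CPM in VSG livers. It fell 36.4-fold in mean CPM (log2 fold change -5.18, adjusted p 0.0155). It was the 1 gene that edgeR called among 38 tested of the receptor signalling list, whose median log2 fold change was 0.52, with 12 genes higher and 4 lower at an unadjusted p under 0.05, where 14.7% of all genes were called and 33.9% had such a p. DESeq2 called 6 higher and 3 lower (19.3% of all genes), limma-voom 1 lower (12.9%), and edgeR without VSG replicate 5 called 17 higher and 1 lower (18.4%). Without sham replicate 3 or VSG replicate 6 Rgs16 was not called (adjusted p 0.0644 and 0.0718), and its log2 fold change was -6.19 without VSG replicate 5 and -4.49 without sham replicate 2. Ackr4, an atypical receptor that removes Ccl19 and Ccl25, had 26 to 45 counts in sham and 6 to 17 in VSG livers, with a log2 fold change of -1.32 (adjusted p 0.0636). It was called lower by DESeq2 (0.0343) and by edgeR without VSG replicate 5 (0.0476). Of 8 stellate cell markers 2 fell, against 7.87% of all genes, all 8 had a negative log2 fold change (median -0.91) and 7 had an unadjusted p under 0.05. Without sham replicate 3 edgeR called 0 (0.748% of all genes), with 3 at an unadjusted p under 0.05, and 5 were called without VSG replicate 5 (9.59%) or with DESeq2 (10.3%). The summed level of the 8 markers was 707.1 to 853.4 CPM in sham and 301.5 to 575.4 CPM in VSG livers.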
